A study of Homo sapiens with 14 samples.

Results

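The genes of cholesterol and fatty acid synthesis were followed in drug-treated A549 and SUM159 cells. A fixed list of 33 gene symbols defined the set, and each symbol was matched to its Ensembl identifier. All 33 were found among the 60683 identifiers counted in every library, and all 33 passed the filter on low counts. The list holds 18 enzymes of the mevalonate and sterol pathway, 8 enzymes that make or modify fatty acids and 7 regulators. RNA sequencing covered 14 libraries in 7 groups, with 2 libraries in each group. A549 is a lung cancer line that the study calls p16 null, and SUM159 was derived from triple-negative breast cancer. A549 cells were left untreated, treated for 10 days with 2 μM palbociclib, with 0.5 μM indisulam or with both drugs (the combination), or treated for 7 days with 0.5 μM PF-06873600. SUM159 cells were left untreated or received 0.5 μM PF-06873600 for 7 days. Palbociclib inhibits CDK4 and CDK6, indisulam is a sulfonamide described as an indirect CDK2 inhibitor, and PF-06873600 is described as an inhibitor of CDK2, CDK4 and CDK6. The study saw no direct and specific CDK2 inhibition by indisulam in a kinase assay. It reports loss of the splicing factor RBM39 with indisulam and, in a separate and shorter experiment, more splicing errors. The part of splicing in the gene counts used here was not tested. All cells were grown with serum, and the SUM159 medium also held insulin and hydrocortisone. The collection time of untreated cells is not given in the sources used here.

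Cells build cholesterol from acetyl-CoA through mevalonate, squalene and lanosterol, and they build fatty acids from the same acetyl-CoA through malonyl-CoA. Transcription of both pathways is driven by the SREBP factors, which are encoded by SREBF1 and SREBF2. SCAP escorts these factors from the endoplasmic reticulum to the Golgi apparatus, where they are cut and released, and INSIG1 holds SCAP back when sterols are plentiful. INSIG1 is itself a target gene of the SREBP factors, and fatty acid enzymes are mainly known as targets of the SREBF1 product. In tumour cells this pathway supplies membrane lipids, and its non-sterol isoprenoid intermediates, made before squalene, feed protein prenylation.

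Library totals ran from 13060374 to 21149256 counts, so 3 counts, used here as a detection floor, were worth 0.142 to 0.23 CPM, where CPM is a count scaled by its library's total. The series describes the duplicates as technical, so p-values measure only the spread between these libraries. The untreated duplicates of both lines stood furthest apart for these genes. Their chi-square statistic for each degree of freedom was 18.7 in A549 and 12.7 in SUM159. In treated groups it ran from 0.971 (A549 with PF-06873600) to 3.01 (SUM159 with PF-06873600). Of the epithelial markers, KRT8 had 28615 to 91866 counts in A549 and 4445 to 7172 in SUM159, and KRT18 35841 to 88420 and 2846 to 5317. CDH1 and EPCAM had 1216 to 2608 and 109 to 400 counts in A549, but at most 14 in SUM159. VIM, a mesenchymal marker, had 61738 to 76348 counts in SUM159 and 9367 to 27075 in A549, where the combination libraries were highest. NKX2-1, SFTPB and SFTPC had at most 7 counts in any library, and in SUM159 ESR1 had at most 14 counts and ERBB2 1888 to 2754. CDKN2A, the p16 gene, had 0 counts in each A549 library. Of 6 markers of leukocytes, endothelium and fibroblasts, CD3E had 0 counts in each library and VWF at most 15. The other 4 were present in SUM159, with 155 to 379 counts for PTPRC, 181 to 584 for PECAM1, 297 to 1050 for PDGFRB and 26518 to 68890 for COL1A1. In A549, PTPRC had at most 9 counts, PECAM1 at most 24, PDGFRB at most 8 and COL1A1 28 to 1142. The summed level of these 6 markers was 3.40 and 3.87 CPM in untreated A549, 5.19 and 5.43 CPM with palbociclib, 21.8 and 20.9 CPM with indisulam, 75.4 and 74.4 CPM with the combination and 10.6 and 9.34 CPM with PF-06873600, mostly from COL1A1. In SUM159 this sum was 1638 and 1739.8 CPM untreated and 3228 and 3353 CPM with PF-06873600. The part of these markers in the results was not tested. In bulk RNA, fewer cells of a kind and less RNA per cell cannot be told apart.

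The genes named most often are INSIG1 (ENSG00000186480, chr7:155297776-155310235, plus strand), SREBF1 (ENSG00000072310, chr17:17810399-17837002, minus), SREBF2 (ENSG00000198911, chr22:41833105-41907306, plus), FASN (ENSG00000169710, chr17:82078338-82098294, minus), ACLY (ENSG00000131473, chr17:41866917-41930542, minus) and SCD (ENSG00000099194, chr10:100347233-100364826, plus), all protein-coding in GENCODE release 44 on hg38. Counts are over whole genes, so a value covers the exons of each. In untreated cells, expression per length was dominated by a few fatty acid enzymes. In A549 the highest level was that of SCD, the desaturase that makes oleate and palmitoleate, with a mean of 226 CPM per kb of exon. ACLY, which makes cytosolic acetyl-CoA from citrate, followed with 79.1 CPM per kb. The desaturases FADS1 and FADS2, which make polyunsaturated fatty acids, had 48.9 and 47.9 CPM per kb. At the lower end, HSD17B7 had 1.10 CPM per kb and CYP51A1 had 0.808 CPM per kb. The first 3 places differed in SUM159, where ACLY had 170.1 CPM per kb, SCD 165 CPM per kb and FASN, the fatty acid synthase, 87.7 CPM per kb. CYP51A1 shares exon sequence with another gene annotated on its own strand and with AKAP9 on the other, and TM7SF2 overlaps VPS51 on the same strand. How the counting treated such reads is not given, so the levels of CYP51A1 and TM7SF2 are uncertain. EBP, FADS1 and FADS2 also share exon sequence with another gene on their own strand.

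The 2 untreated lines differed in most of these genes, and also in most of all genes tested. Of the 33 genes, 22 were higher in SUM159 and 7 were lower at an adjusted p under 0.05, where 41.9% and 36.8% of all 17279 genes tested were higher and lower. FASN had 157 and 101 CPM in A549 and 744 and 892 CPM in SUM159. Both SUM159 libraries lay far above both A549 libraries, a log2 difference of 2.66 ± 0.13 (SE). With 1 library left out, the FASN difference ran from 2.38 to 3.02. LSS, which closes squalene epoxide into lanosterol, had 34.1 and 30.5 CPM in A549 and 138 and 142 CPM in SUM159, which is 4.35-fold higher. INSIG1 had 32.7 and 35.1 CPM in A549 and 146 and 133 CPM in SUM159, or 4.12-fold higher. ELOVL6, which elongates palmitate, was 3.49-fold higher in SUM159, LPIN1, a phosphatidate phosphatase and transcriptional coregulator, 3.31-fold, and EBP, a sterol isomerase, 2.58-fold. The opposite held for the desaturases of polyunsaturated fatty acids. FADS2 had 526 and 484 CPM in A549 but 17.6 and 14.8 CPM in SUM159, a log2 difference of -4.96 ± 0.08. FADS1 had 470.3 and 529 CPM in A549 and 148 and 139.7 CPM in SUM159. TM7SF2, a sterol reductase with a largest value of 1.75 CPM in any SUM159 library, had a log2 difference of -3.78 ± 0.17. MYLIP, a ubiquitin ligase that acts on lipoprotein receptors, was lower in SUM159 by -1.29 ± 0.12 on the log2 scale, and SCD by -0.45 ± 0.06. Differences were small for the SREBP genes. SREBF2 differed by -0.25 ± 0.06, and SREBF1 by -0.21 ± 0.09 with both lines overlapping, since 1 of the untreated A549 libraries had 189 CPM and the SUM159 libraries had 195 and 194 CPM. Without untreated A549 replicate 1 the SREBF1 difference was 0.04 and without replicate 2 -0.43, and its call was also lost without either untreated SUM159 library. SCAP was higher in SUM159 by 0.81 ± 0.08.

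Promoter sequences are shown for 6 genes on which the drug results turn, taken from RefSeq (GRCh38.p14) as the 250 bases before the start site of that annotation. INSIG1, STARD4 and SCD were lower after PF-06873600 in both lines, HMGCS1 and ACLY moved in opposite directions in the lines, and SREBF2 encodes a factor of the pathway. Where a gene has more than 1 window in the table, the first is shown. Capitals mark matches to the CCAAT box (CCAAT), the E-box (CACGTG) and the core of the classical sterol response element (TCACNCCAC), each searched on both strands. The windows are INSIG1 at chr7:155297628-155297877 on the plus strand, STARD4 at chr5:111512536-111512785 on the minus strand, SCD at chr10:100346983-100347232 on the plus strand, HMGCS1 at chr5:43313413-43313662 on the minus strand, ACLY at chr17:41919023-41919272 on the minus strand and SREBF2 at chr22:41832855-41833104 on the plus strand.
INSIG1: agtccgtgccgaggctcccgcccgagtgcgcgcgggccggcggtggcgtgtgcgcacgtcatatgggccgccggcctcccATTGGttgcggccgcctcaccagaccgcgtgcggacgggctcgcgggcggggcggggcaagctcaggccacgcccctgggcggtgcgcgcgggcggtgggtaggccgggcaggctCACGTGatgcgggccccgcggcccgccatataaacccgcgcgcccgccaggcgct
STARD4: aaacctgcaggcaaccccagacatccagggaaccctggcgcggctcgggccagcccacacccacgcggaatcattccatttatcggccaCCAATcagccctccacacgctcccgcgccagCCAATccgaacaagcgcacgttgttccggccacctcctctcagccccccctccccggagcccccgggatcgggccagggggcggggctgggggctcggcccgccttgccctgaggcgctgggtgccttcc
SCD: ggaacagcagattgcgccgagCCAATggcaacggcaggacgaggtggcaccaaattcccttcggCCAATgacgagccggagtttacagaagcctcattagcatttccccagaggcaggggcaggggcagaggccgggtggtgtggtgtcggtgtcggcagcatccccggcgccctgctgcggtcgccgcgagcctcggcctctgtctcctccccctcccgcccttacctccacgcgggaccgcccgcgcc
HMGCS1: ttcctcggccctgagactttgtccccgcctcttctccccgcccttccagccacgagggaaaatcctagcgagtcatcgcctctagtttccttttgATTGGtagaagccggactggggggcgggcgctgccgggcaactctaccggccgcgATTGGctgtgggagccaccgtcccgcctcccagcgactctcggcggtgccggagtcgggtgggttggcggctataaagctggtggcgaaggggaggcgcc
ACLY: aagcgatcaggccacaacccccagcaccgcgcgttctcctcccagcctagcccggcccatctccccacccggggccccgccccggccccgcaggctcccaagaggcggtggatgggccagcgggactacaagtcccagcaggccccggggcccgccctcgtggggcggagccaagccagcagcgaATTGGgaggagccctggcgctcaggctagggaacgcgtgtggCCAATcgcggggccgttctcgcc
SREBF2: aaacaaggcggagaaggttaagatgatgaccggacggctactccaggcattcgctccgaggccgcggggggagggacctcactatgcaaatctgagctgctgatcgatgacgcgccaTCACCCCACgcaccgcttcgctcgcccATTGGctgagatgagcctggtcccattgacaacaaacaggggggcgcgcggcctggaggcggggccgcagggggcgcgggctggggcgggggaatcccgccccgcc

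Windows were found for 29 of the 33 genes, 41 windows in all, and ACAT2, FDFT1, SQLE and FASN had none in the table. A CCAAT box was present in at least 1 window of 21 of these genes, and in 61.0% of the 41 windows compared to 32.0% of all 35116 windows. An E-box stood in windows of 3 genes (SC5D, INSIG1 and SCAP), or 9.76% of the windows compared to 6.34% of all. Some windows of the same gene overlap, so the same site can be counted in more than 1 window. The SC5D E-box and the ACLY CCAAT boxes were counted in this way. A match to the letters of the sterol response core was present only in the SREBF2 window. There it begins 133 bases before the start site and is followed by a CCAAT box on the other strand at 106 bases. Such a match was found in 0.883% of all windows. Variant forms of the element were not searched, so a window without a match is not shown to lack one. In INSIG1 the CCAAT box begins 170 bases before the start and the E-box 55 bases before it. The GC box (GGGCGG), which is not capitalised, occurred in 87.8% of the 41 windows and 42.6% of all. No capitalised match overlapped another. A match is only a description of the letters in a window.

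PF-06873600 lowered more of these genes than it raised in A549. Of the 33 genes, 15 fell and 6 rose compared to untreated cells, where 27.8% of all 15780 genes tested fell and 28.5% rose. The median log2 fold change of the 33 genes was -0.24, compared to -0.01 over all genes tested. Of the 7 regulators 5 fell, and their median was -0.76. INSIG1 had 32.7 and 35.1 CPM in untreated cells and 11.3 and 11.6 CPM after treatment. Its groups lay far apart, with a log2 fold change of -1.56 ± 0.10 (SE) and an adjusted p of 5.8e-09 in edgeR's quasi-likelihood test with Benjamini-Hochberg adjustment. STARD4, a cytosolic carrier of cholesterol, dropped from 19.1 and 24.1 CPM to 10.2 and 9.83 CPM, or 0.463-fold. MYLIP dropped from 17.1 and 18.5 CPM to 9.19 and 7.91 CPM, or 0.478-fold. SREBF2 had 191 and 182 CPM in untreated cells and 109 and 111 CPM after treatment, a log2 fold change of -0.76 ± 0.06. SREBF1 fell from 263 and 189 CPM to 138 and 142 CPM, by -0.69 ± 0.11, a value that became -0.43 without untreated replicate 1. The 2 treated libraries were close together for both factors, and lay below each untreated library. SCAP moved the other way, with 0.28 ± 0.08 on the log2 scale. Its call was lost without untreated replicate 2 (0.14) and without PF-06873600 replicate 1 (0.27), and the value was 0.44 without untreated replicate 1.

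**Figure D1:**
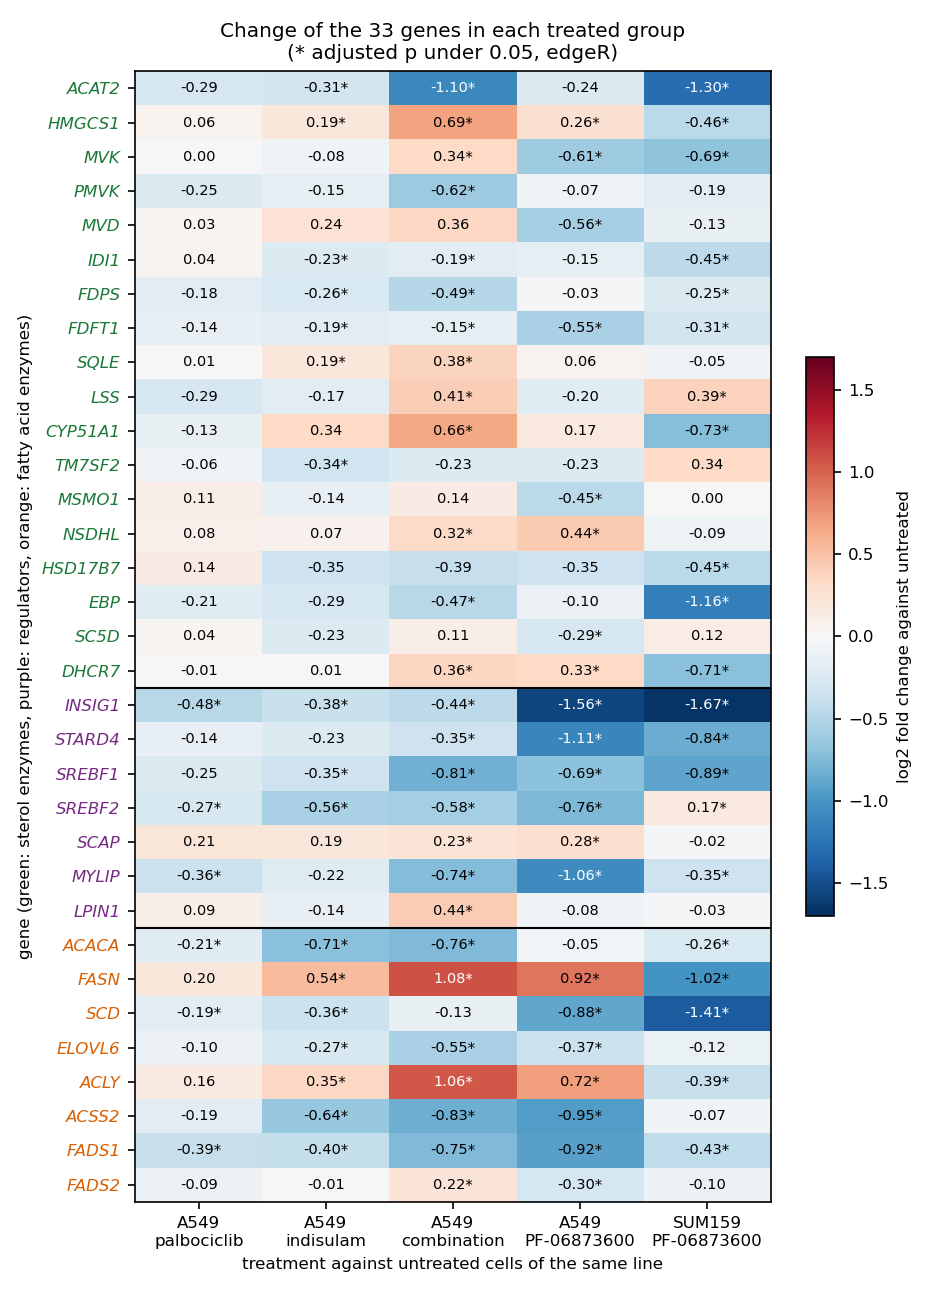
Log2 fold change of each of the 33 genes (rows, with sterol enzymes, regulators and fatty acid enzymes from top to bottom) in the 5 treated groups against untreated cells of the same line (columns). Red is higher, blue is lower and a star marks an adjusted p under 0.05. INSIG1 is blue with a star in each column, and FASN and ACLY are red with a star in the A549 columns of indisulam, the combination and PF-06873600 but blue in SUM159.

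Within fatty acid synthesis, the enzymes of A549 moved in different directions with PF-06873600. ACLY and FASN rose. ACLY had 415 and 409 CPM untreated and 672 and 681 CPM treated, a log2 fold change of 0.72 ± 0.05. FASN had 157 and 101 CPM untreated and 235 and 252 CPM treated, a change of 0.92 ± 0.13, and both treated libraries exceeded the higher untreated library. With 1 library left out, the FASN change ran from 0.63 to 1.27. ACACA, the acetyl-CoA carboxylase between these enzymes, had 163 and 159 CPM untreated and 153 and 158 CPM treated, which did not pass the test. The desaturases fell instead. SCD dropped from 1139 and 1228 CPM to 635 and 654 CPM, a change of -0.88 ± 0.06, and FADS1 from 470.3 and 529 CPM to 262 and 266 CPM, a change of -0.92 ± 0.07. ACSS2, which makes acetyl-CoA from acetate, fell from 24.0 and 23.9 CPM to 12.1 and 12.6 CPM. FADS2 and ELOVL6 fell less, by 0.30 and 0.37 on the log2 scale. The summed level of the 33 genes, to which SCD added most in untreated A549, was 4244 and 4204 CPM untreated and 3448 and 3507 CPM with PF-06873600, and without SCD it was 3104 and 2977 CPM compared to 2812 and 2853 CPM.

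Of the 18 sterol enzymes in A549, 5 fell with PF-06873600, 3 rose and 10 did not pass the test. These shares were 27.8% lower and 16.7% higher, compared to 27.8% and 28.5% of all genes tested. FDFT1, which makes squalene, dropped from 109.8 and 121 CPM to 77.6 and 80.0 CPM, a log2 fold change of -0.55 ± 0.06. MVK, the mevalonate kinase, dropped from 10.6 and 10.4 CPM to 6.97 and 6.80 CPM. MVD, which makes isopentenyl diphosphate, had untreated values of 26.0 and 15.2 CPM against 13.4 and 14.4 CPM treated, so its fall of 0.56 rested on untreated replicate 1. Without that library it was -0.12, without untreated replicate 2 it was -0.90, and the call was also lost without either treated library. NSDHL, a sterol dehydrogenase, rose from 31.9 and 31.3 CPM to 42.9 and 43.0 CPM. DHCR7, which catalyses the last reduction to cholesterol, rose by 0.33 ± 0.07, and HMGCS1, which makes HMG-CoA at the start of the pathway, by 0.26 ± 0.07. MSMO1 and SC5D, which act on sterol intermediates, fell by 0.45 and 0.29. The call of SC5D was lost without untreated replicate 2 (-0.17) and without either treated library (-0.24 and -0.34).

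**Figure D2:**
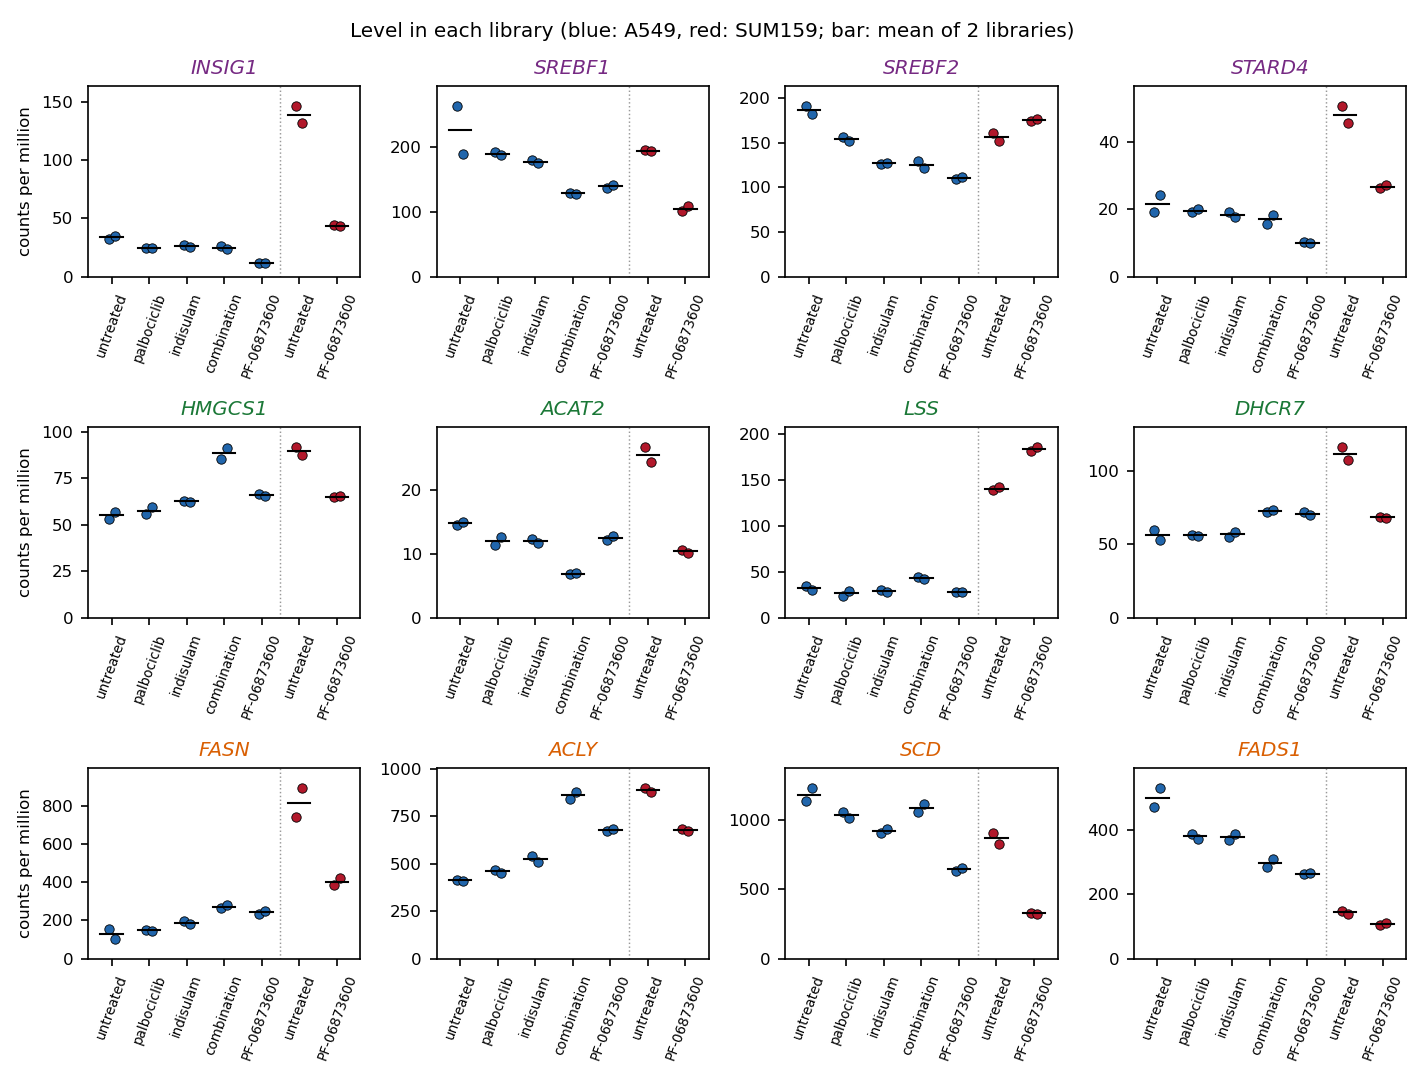
Level (CPM, linear axes from 0) of 12 of the genes in each of the 14 libraries, with 1 point per library, A549 in blue and SUM159 in red, and a bar at the mean of the 2 libraries of a group. INSIG1 drops to 11.3 and 11.6 CPM in A549 with PF-06873600, and ACLY reaches 842 and 876 CPM in the A549 combination.

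In SUM159 most of these genes fell with the same drug. Of the 33 genes, 19 fell and 2 rose, where 35.6% of all 15055 genes tested fell and 38.1% rose. The median log2 fold change of the 33 genes was -0.31 compared to 0.02 over all genes tested. Among sterol enzymes 10 of 18 fell, among fatty acid enzymes 5 of 8 and among regulators 4 of 7. INSIG1 dropped from 146 and 133 CPM to 44.5 and 43.3 CPM, a log2 fold change of -1.67 ± 0.06. SCD dropped from 908 and 825 CPM to 331 and 320.1 CPM, or 0.375-fold. FASN dropped from 744 and 892 CPM to 384 and 423 CPM, or 0.494-fold. Each of these genes had both treated libraries far below both untreated libraries. ACAT2, the cytosolic thiolase that starts the mevalonate pathway, had 26.8 and 24.4 CPM untreated and 10.7 and 10.2 CPM treated. EBP had 53.1 and 52.1 CPM untreated and 24.5 and 22.7 CPM treated. These changes were -1.30 ± 0.10 and -1.16 ± 0.07 on the log2 scale, with adjusted p of 2.2e-08 and 1.9e-09 in edgeR's quasi-likelihood test. SREBF1 fell from 195 and 194 CPM to 101 and 108 CPM, a change of -0.89 ± 0.06. SREBF2 rose slightly, from 161 and 152 CPM to 174 and 177 CPM, a change of 0.17 ± 0.05 whose call was lost without either treated library (0.18 and 0.16). LSS also rose, from 138 and 142 CPM to 181 and 185 CPM. SCAP was at 118 and 112 CPM untreated and 112 and 115 CPM treated. The summed level of the 33 genes was 4945 and 4914 CPM untreated and 3334 and 3351 CPM treated. The call of MYLIP (-0.35) was lost without untreated replicate 1 (-0.32) and without either treated library (-0.38 and -0.32), and that of HSD17B7 (-0.45) without treated replicate 1 (-0.23), while without treated replicate 2 the latter was -0.77. The 10 proliferation genes on the list used here also fell in SUM159, 10 of 10. Their summed level was 3177 and 3299.6 CPM untreated and 1143 and 1139.9 CPM treated. In A549 the sum was 875 and 924 CPM untreated and 746 and 783 CPM with PF-06873600, and single genes moved both ways. There MCM5 had 600 and 548 counts untreated and 1024 and 1362 treated, and PLK1 1102 and 1091 untreated and 398 and 517 treated. The part of the proliferation genes in these changes was not tested.

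**Figure D3:**
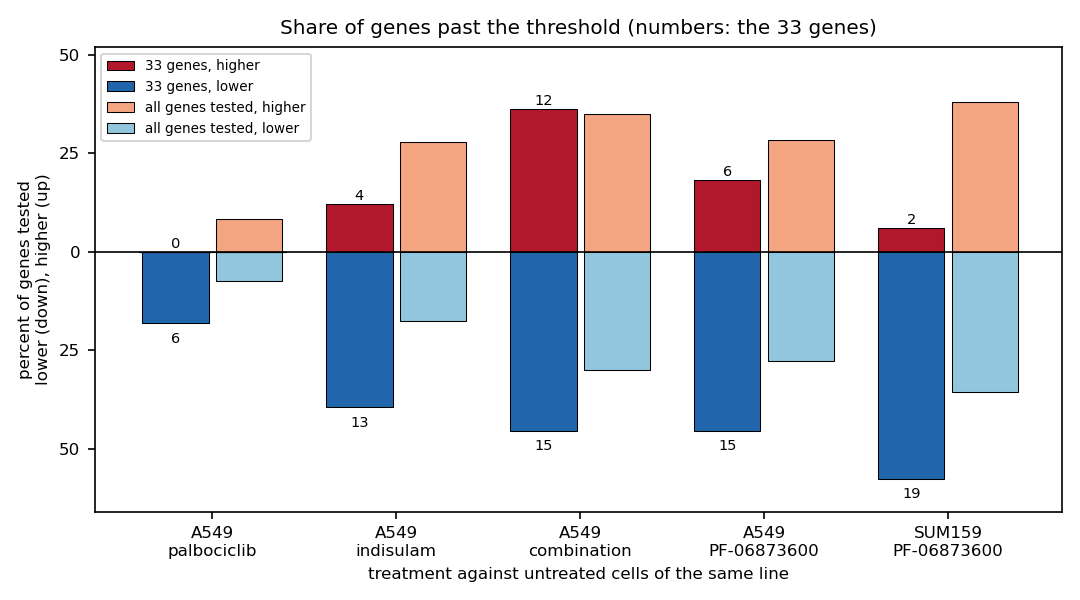
Share of genes past an adjusted p of 0.05 (percent, higher above 0 and lower below 0) in each treated group against untreated cells, for the 33 genes (dark bars, with their numbers) and for all genes tested (light bars). In SUM159 with PF-06873600, 19 of the 33 genes were lower and 2 higher, and in the A549 combination 15 were lower and 12 higher.

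The response to PF-06873600 differed between the lines for 21 of the 33 genes, in a model with both lines and an interaction term. The response was more positive in SUM159 for 9 genes and more negative for 12, where 25.8% and 27.2% of all 17279 genes tested were so. In either direction this is 63.6% of the 33 genes compared to 53.0% of all genes, and with DESeq2 48.5% compared to 45.9%. Direction was opposite in the 2 lines for 5 genes, and the lines differed for each of these 5. HMGCS1, DHCR7, FASN and ACLY rose in A549 and fell in SUM159, and SREBF2 fell in A549 and rose in SUM159, where DESeq2 gave 0.16 for it without a call. FASN differed most, with 0.92 in A549 and -1.02 in SUM159, a difference of -1.93 ± 0.18. With 1 library left out, the FASN difference ran from -2.29 to -1.65. ACLY differed by -1.11 ± 0.07, DHCR7 by -1.04 ± 0.09 and HMGCS1 by -0.72 ± 0.09. SREBF2 differed by 0.92 ± 0.08, in the other direction. EBP and ACAT2 fell in SUM159 and did not pass the test in A549, and the lines differed by -1.05 for each. ACSS2 fell in A549 and did not pass the test in SUM159, with a difference of 0.88 ± 0.13. In contrast, 8 genes fell in both lines: MVK, FDFT1, INSIG1, STARD4, SREBF1, MYLIP, SCD and FADS1. Of these, INSIG1 differed between the lines by -0.10 ± 0.12 and SREBF1 by -0.20 ± 0.14, which did not pass the test. SCD fell further in SUM159, by -0.54 ± 0.09, and FADS1 and MYLIP fell further in A549. The call of CYP51A1 (-0.90) was lost without untreated A549 replicate 2 (-0.65), PF-06873600 A549 replicate 2 (-0.83) and PF-06873600 SUM159 replicate 1 (-0.70).

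**Figure D4:**
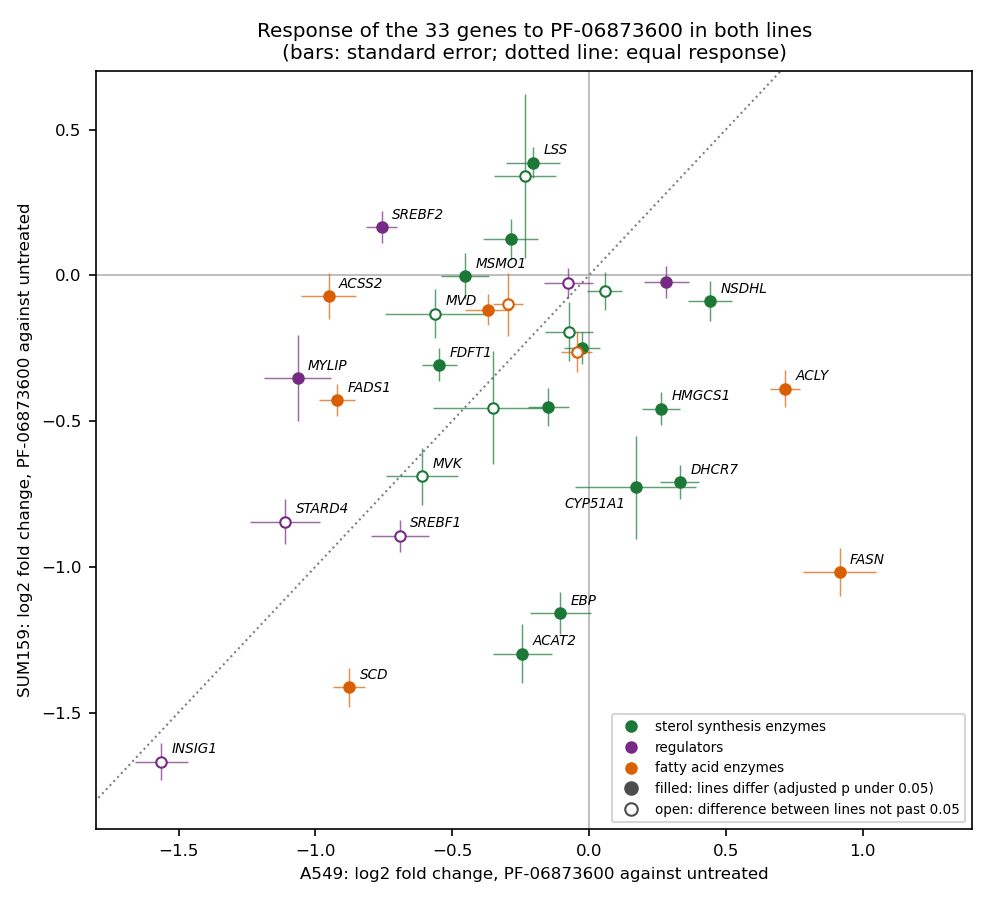
Log2 fold change after PF-06873600 in A549 (horizontal) and in SUM159 (vertical) for each of the 33 genes, with standard errors, and a dotted line where both are equal. Filled points are the 21 genes whose response differed between the lines, FASN lies at 0.92 and -1.02, and INSIG1 lies near the dotted line at -1.56 and -1.67.

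In A549, palbociclib alone changed few of these genes. Of the 33 genes, 6 fell and 0 rose, where 7.4% of all 15780 genes tested fell and 8.3% rose. At an unadjusted p under 0.05, 2 were higher and 12 lower, and DESeq2 called 0 higher and 4 lower. The genes that fell were INSIG1, FADS1, MYLIP, SREBF2, ACACA and SCD. INSIG1 dropped from 32.7 and 35.1 CPM to 24.5 and 24.2 CPM, a log2 fold change of -0.48 ± 0.09. FADS1 dropped from 470.3 and 529 CPM to 389 and 373 CPM, a change of -0.39 ± 0.07. These 2 calls held in each alternative tried. MYLIP, ACACA and SCD lost their call without either palbociclib library, SREBF2 (-0.27) without palbociclib replicate 2 (-0.25), and MYLIP and SCD also without untreated replicate 2. Values of MYLIP, ACACA and SCD were -0.39, -0.23 and -0.22 without palbociclib replicate 1, and -0.33, -0.19 and -0.17 without palbociclib replicate 2. Without untreated replicate 2 they were -0.30 for MYLIP and -0.14 for SCD. Without untreated replicate 1 the counts became 4 higher and 7 lower. Of the 18 sterol enzymes, 0 passed edgeR's test and 0 passed that of DESeq2, and at an unadjusted p under 0.05, 5 were lower. SREBF1 had 192 and 188 CPM with palbociclib, at the level of 1 untreated library (189 CPM) and below the other (263 CPM), and its change of -0.25 ± 0.10 did not pass. SCAP had 75.2 and 76.0 CPM against 72.5 and 58.6 CPM, which did not pass either.

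Indisulam alone lowered 13 of the 33 genes and raised 4, where 17.5% of all genes tested fell and 28.0% rose. With TMM scaling 19 fell and 2 rose, and the share of higher genes among all calls moved from 61.6% to 50.4%. ACACA and ACSS2 had the lowest values. ACACA dropped from 163 and 159 CPM to 99.7 and 97.1 CPM, a log2 fold change of -0.71 ± 0.06. ACSS2 dropped from 24.0 and 23.9 CPM to 16.5 and 14.2 CPM, a change of -0.64 ± 0.10. SREBF2 dropped from 191 and 182 CPM to 126 and 127 CPM, a change of -0.56 ± 0.06. FADS1, INSIG1 and SCD fell by 0.40, 0.38 and 0.36. In contrast ACLY rose from 415 and 409 CPM to 539 and 510.2 CPM, a change of 0.35 ± 0.05. FASN had 196 and 179.7 CPM against 157 and 101 CPM, a change of 0.54 ± 0.13 that DESeq2 did not call (0.47). It was 0.26 without untreated replicate 2 and 0.89 without untreated replicate 1. The remaining calls were smaller, and 7 of the 17 held in each alternative: ACACA, ACLY, ACSS2, FADS1, INSIG1, SCD and SREBF2. SREBF1 (-0.35) was -0.09 without untreated replicate 1 and -0.57 without replicate 2, and its call was also lost without either indisulam library (-0.37 and -0.33). HMGCS1 and SQLE, the squalene epoxidase, rose by 0.19 each, and their calls were lost without untreated replicate 1 (0.14 and 0.12), without either indisulam library (0.18 to 0.20), with TMM (0.11 and 0.12) and in DESeq2 (0.12 each). SCAP did not pass, at 0.19 ± 0.08.

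The combination changed most of the 33 genes, in both directions. Compared to untreated cells, 12 rose and 15 fell, where 35.1% of all genes tested rose and 30.0% fell. Untreated libraries are shared by the palbociclib, indisulam, combination and PF-06873600 comparisons in A549, so these are not independent of each other. FASN had 264 and 281 CPM and ACLY 842 and 876 CPM in the combination, which is 2.11-fold and 2.09-fold the untreated level. With 1 library left out, the log2 fold change ran from 0.79 to 1.43 for FASN and from 1.03 to 1.09 for ACLY. For both genes each combination library exceeded every untreated and single-drug library. HMGCS1 rose from 52.9 and 56.9 CPM to 85.5 and 91.4 CPM, a log2 fold change of 0.69 ± 0.07. CYP51A1, the lanosterol demethylase, rose by 0.66 ± 0.21 from at most 4.01 CPM, and lost its call without untreated replicate 2 (0.41) or combination replicate 2 (0.56) and in DESeq2 (0.62). LPIN1 rose by 0.44 ± 0.09 and LSS by 0.41 ± 0.10. Among sterol enzymes 7 of 18 rose and 6 fell. ACAT2, the thiolase, fell furthest, from 14.6 and 15.1 CPM to 6.88 and 6.95 CPM, a change of -1.10 ± 0.12. ACSS2 fell by 0.83, ACACA by 0.76, FADS1 by 0.75 and MYLIP by 0.74. PMVK, the phosphomevalonate kinase, dropped from 23.7 and 23.4 CPM to 15.6 and 15.1 CPM. SREBF1 fell to 129 and 128 CPM, a change of -0.81 ± 0.11, and SREBF2 to 129 and 121 CPM, a change of -0.58 ± 0.06. INSIG1 had 26.4 and 23.7 CPM, a change of -0.44 ± 0.09. SCAP rose by 0.23 ± 0.08, and this call was lost with TMM scaling (0.15), without untreated replicate 2 (0.09) and without either combination library (0.21 and 0.26), and the value was 0.39 without untreated replicate 1. The summed level of the 33 genes was 4333 and 4450.3 CPM, above the 4244 and 4204 CPM of untreated cells, while the 10 proliferation genes summed to 246 and 251 CPM compared to 875 and 924 CPM. The part of the proliferation genes was not tested.

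Compared to palbociclib alone, the combination raised 11 of the 33 genes and lowered 12, where 33.5% of all genes tested rose and 26.9% fell. ACLY was at 466 and 453 CPM with palbociclib and 842 and 876 CPM with the combination, a log2 difference of 0.90 ± 0.05. FASN differed by 0.88 ± 0.13, CYP51A1 by 0.78 ± 0.21, LSS by 0.71 ± 0.10 and HMGCS1 by 0.62 ± 0.07. At the other end ACAT2 differed by -0.81 ± 0.12, ACSS2 by -0.64 ± 0.10, SREBF1 by -0.56 ± 0.11 and ACACA by -0.55 ± 0.06. HSD17B7, a 3-ketosteroid reductase, had 6.31 and 5.31 CPM with palbociclib and 2.98 and 4.96 CPM with the combination, and lost its call without combination replicate 1 (-0.22) and without palbociclib replicate 1 (-0.41), and was -0.95 without combination replicate 2. CYP51A1 lost its call without combination replicate 2 (0.68). SREBF2 was lower in the combination by 0.30, and INSIG1 and SCAP did not pass, at 0.04 ± 0.09 and 0.03 ± 0.08. Compared to indisulam alone, the combination raised 13 of the 33 genes and lowered 7, where 22.0% of all genes tested rose and 23.9% fell. ACLY was at 539 and 510.2 CPM with indisulam, a difference of 0.71 ± 0.05. LSS differed by 0.59 ± 0.10, LPIN1 by 0.58 ± 0.09, FASN by 0.54 ± 0.13 and HMGCS1 by 0.50 ± 0.07. ACAT2 was again at the low end, at 12.3 and 11.7 CPM with indisulam and 6.88 and 6.95 CPM with the combination, and MYLIP, PMVK, SREBF1 and FADS1 were lower by 0.52, 0.47, 0.46 and 0.35. Without combination replicate 1 or without indisulam replicate 1, 8 genes were higher in place of 13. SREBF2, INSIG1 and SCAP did not pass, at -0.02 ± 0.06, -0.06 ± 0.09 and 0.05 ± 0.08.

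For 10 of the 33 genes the combination differed from the sum of the single-drug changes on the log2 scale, by an interaction term. The combination was above the sum for 9 genes and below it for 1, where 10.7% and 14.5% of all genes tested lay above and below. LSS lay furthest above. It had 23.5 and 28.9 CPM with palbociclib, 29.6 and 27.6 CPM with indisulam and 43.6 and 42.3 CPM with both, so the single-drug changes summed to -0.47 while the combination was at 0.41, an interaction of 0.88 ± 0.14. ACLY had single-drug changes of 0.16 and 0.35 and a combination of 1.06, an interaction of 0.55 ± 0.07. The interaction was 0.48 ± 0.12 for LPIN1, 0.44 ± 0.10 for HMGCS1, 0.43 ± 0.08 for SCD and 0.42 ± 0.13 for INSIG1. INSIG1, SREBF2 and SCD fell with each drug, and the combination fell less than the sum. SCD changed by -0.19 with palbociclib and -0.36 with indisulam. Its combination value, -0.13 ± 0.06, did not pass the test. SREBF2 had an interaction of 0.25 ± 0.08 and ACAT2, the gene below the sum, one of -0.50 ± 0.16. FASN had 0.34 without passing the test. Its value was -0.015 without untreated replicate 1, it passed at 0.62 without untreated replicate 2, and it also passed with no filter on low counts (0.34). SREBF1 and SCAP had -0.21 ± 0.15 and -0.16 ± 0.12. Of these 10 calls, 5 held in each alternative: ACLY, FADS2, HMGCS1, LSS and SCD. The call of ACAT2 held without palbociclib replicate 1 and without untreated replicate 2, and was lost without any of the other 6 libraries, with values from -0.54 to -0.42. SREBF2 was lost without combination replicate 1 (0.21), each indisulam library (0.25 and 0.26) and each palbociclib library (0.27 and 0.23). INSIG1 was lost without combination replicate 1 (0.34), indisulam replicate 2 (0.36) and each palbociclib library (0.42 and 0.41). LPIN1 was lost without indisulam replicate 2 (0.36), and DHCR7 without combination replicate 2, indisulam replicate 1 or palbociclib replicate 2 (0.32 to 0.35).

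**Figure D5:**
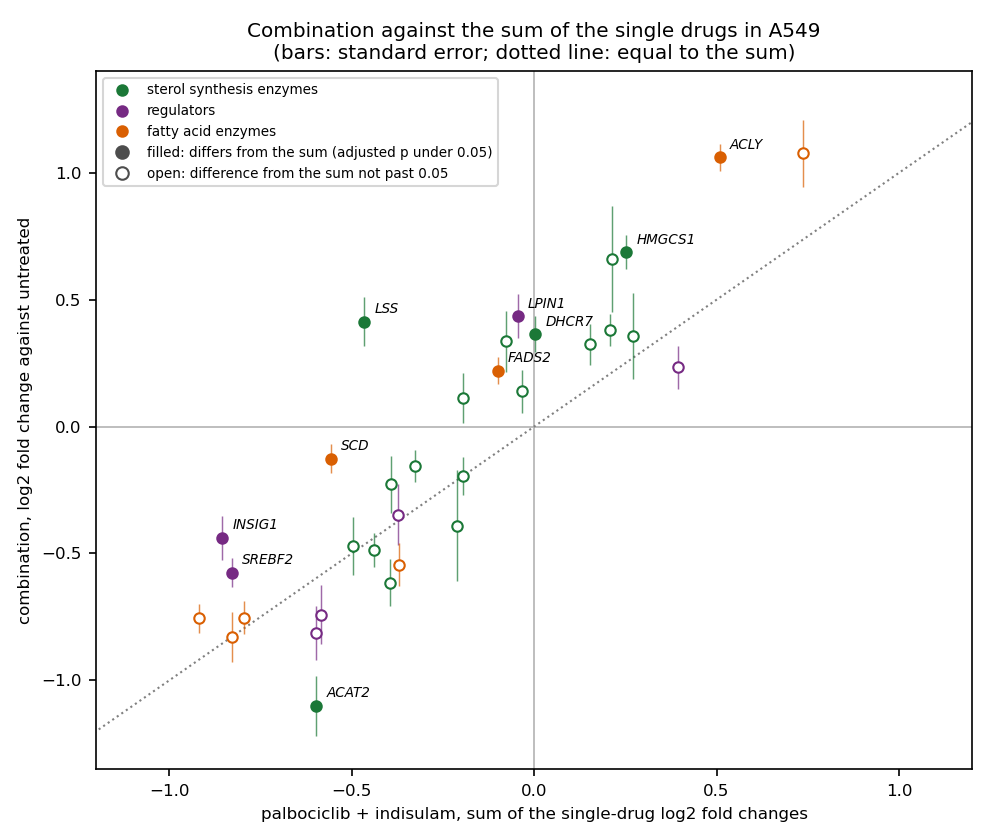
Log2 fold change of the combination against untreated A549 (vertical, with standard errors) and the sum of the log2 fold changes of palbociclib and of indisulam (horizontal) for each of the 33 genes, with a dotted line where both are equal. Filled points are the 10 genes whose combination differed from the sum, of which LSS lies 0.88 above the line and ACAT2 0.50 below it.

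Genes around the pathway were counted from fixed lists. The shares of all genes tested that rose and fell, against which these counts are to be read, were 28.5% and 27.8% in A549 with PF-06873600, 38.1% and 35.6% in SUM159 with PF-06873600 and 35.1% and 30.0% in the A549 combination. Of 12 genes of sterol efflux and storage, 5 rose and 5 fell in A549 with PF-06873600 (41.7% each), and 8 rose (66.7%) and 0 fell in SUM159, where 0 were lower at an unadjusted p under 0.05 and in DESeq2. ABCA1, which exports cholesterol from the cell, had 4.28 and 4.80 CPM in untreated A549. It had 10.6 and 9.46 CPM with palbociclib, 31.9 and 35.4 CPM with indisulam, 55.2 and 56.3 CPM with the combination and 28.8 and 34.0 CPM with PF-06873600. Each A549 treatment raised it, with log2 fold changes from 1.14 to 3.61. NPC1, which moves cholesterol out of lysosomes, rose from 23.9 and 22.7 CPM to 63.8 and 62.6 CPM with PF-06873600 in A549. ABCG1, of the same list, moved the other way, with 568 and 601 counts in untreated A549 and 245 and 315 with PF-06873600 (not scaled by library total). Of 12 genes of SREBP processing and sterol-regulated degradation, 8 fell (66.7%) and 3 rose in the combination, and TMEM97, a sterol-responsive membrane protein, dropped from 178 and 198 CPM to 43.4 and 39.3 CPM. Of 13 genes of the isoprenoid branch, 7 fell (53.8%) and 3 rose (23.1%) in SUM159 with PF-06873600, and 8 fell (61.5%) and 2 rose (15.4%) in the A549 combination. Of 21 other genes of fatty acid synthesis and activation, 9 rose (42.9%) and 7 fell (33.3%) in the combination, near the shares of all genes. SCD5, another stearoyl-CoA desaturase, had 11.6 and 14.3 CPM in untreated A549 and 46.9 and 51.6 CPM with PF-06873600. In SUM159 it had 3.56 and 3.44 CPM untreated and 29.5 and 26.5 CPM treated, while SCD fell in both lines. ELOVL7, an elongase, rose by 2.36 in A549 and 2.96 in SUM159 with PF-06873600.

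Genes of fatty acid oxidation and glycerolipid metabolism were followed with the same counts. Of 19 oxidation genes, 9 fell (47.4%) and 3 rose (15.8%) in A549 with PF-06873600, whereas 11 rose (61.1%) and 4 fell (22.2%) among the 18 tested in SUM159. The response differed between the lines for 13 of the 19 (68.4%, compared to 53.0% of all genes), of which 11 were more positive in SUM159. CPT1A, which admits fatty acids to mitochondria, had 18.3 and 20.0 CPM in untreated SUM159 and 38.2 and 37.7 CPM after treatment. In A549 it had 1914 and 1878 counts untreated and 750 and 912 with PF-06873600 (not scaled by library total). The combination lowered CPT1A in A549 from 130.1 and 125 CPM to 53.7 and 54.8 CPM. A list of 16 genes around triglyceride and phospholipid synthesis also held PLIN2, PLIN3 and PNPLA2, which do not encode synthesis enzymes. Of the 16, 12 rose (75.0%) and 2 fell (12.5%) in the A549 combination, compared to 35.1% and 30.0% of all genes. PLIN2, which coats lipid droplets, had 19.8 and 20.0 CPM in untreated A549 and 68.3 and 67.4 CPM in the combination. DGAT2, which makes triglycerides, had 1.93 and 2.25 CPM in untreated SUM159 and 20.1 and 20.8 CPM with PF-06873600.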

How the data were processed

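RNA of 14 libraries was sequenced by the authors as poly(A)-selected, strand-specific libraries with single-end reads and aligned to hg38. The submitters' processing notes name HISAT2 2.2.1, HTSeq and GRCh38, without a role or order. The authors deposited 1 table of raw read counts per library, with 60683 Ensembl identifiers and 9 summary lines. The latter were left out of library totals. The annotation release and the use of strand in counting are not given in the sources used here, so overlapping genes are reported as uncertain. No read was marked as a duplicate. Without molecular identifiers, the floor of 3 counts covers counting error only. Symbols, coordinates and exon lengths came from GENCODE release 44, which held 60370 of the identifiers and all 33 genes. CPM are counts scaled by the library total.

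Groups were taken from the sample labels. Low counts were filtered by the filterByExpr function (edgeR 4.0.16, R 4.3.3). The A549 fit held 10 libraries and 15780 genes, the SUM159 fit 4 libraries and 15055 genes, and a joint fit of the lines 14 libraries and 17279 genes. Library totals served as size factors, as the study's methods describe. P-values are from the quasi-likelihood test of edgeR, adjusted after Benjamini and Hochberg over all genes tested, with a threshold of 0.05, and the scripts were tested on simulated data. Errors beside log2 values are standard errors, derived as the absolute log2 value divided by the square root of the F statistic of that test. With 2 libraries against 2, an exact two-sided permutation test cannot go below 0.333. Biological coefficients of variation were 0.0555 for A549, 0.0472 for SUM159 and 0.0529 for both.

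The 33 genes, the other gene lists and the tests were chosen with earlier results of these data known. In each comparison up to 6 of the highest and 6 of the lowest genes past the threshold are named, with SREBF1, SREBF2, SCAP and INSIG1 at any value. From other lists at most the 2 highest and 2 lowest called genes are named. Promoter windows came from the RefSeq table of GRCh38.p14.

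Each result was computed again with DESeq2 1.42.0, with TMM factors, without the filter, for genes with 50 or more counts on average, with the compared groups alone, with replicate number as a block, and without each library in turn. A block with crossed replicate numbers was an addition made after seeing the data. Tables and figures were made with Python 3.11.15, numpy 2.4.6, pandas 2.3.3 and matplotlib 3.10.9.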

Additional observations from a re-analysis of the deposited data

Results flagged for a closer look

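The same drug at the same dose and time changed 21 of the 33 genes differently in the 2 lines, by the interaction term of the model with both lines (edgeR's quasi-likelihood test, adjusted p under 0.05). This was 63.6% of the 33 genes, compared to 53.0% of all 17279 genes tested, and with DESeq2 it was 16 genes, or 48.5% compared to 45.9%, so nothing about the 33 genes as a set is read from this count. For 12 genes the log2 fold change after PF-06873600 was lower in SUM159 than in A549. The difference, SUM159 minus A549, was -1.93 for FASN, -1.11 for ACLY, -1.05 for ACAT2, -1.05 for EBP, -1.04 for DHCR7 and -0.90 for CYP51A1. It was -0.72 for HMGCS1, -0.54 for SCD, -0.53 for NSDHL, -0.31 for SCAP, -0.30 for IDI1 and -0.22 for FDPS. For 9 genes the log2 fold change was higher in SUM159, by 0.92 for SREBF2, 0.88 for ACSS2, 0.71 for MYLIP, 0.59 for LSS, 0.49 for FADS1, 0.45 for MSMO1, 0.41 for SC5D, 0.25 for ELOVL6 and 0.24 for FDFT1. With TMM scaling 9 genes were lower and 9 higher in SUM159, and with DESeq2 8 and 8. Calls held in each alternative for 13 of the 21 genes: ACAT2, ACLY, ACSS2, DHCR7, EBP, FADS1, FASN, HMGCS1, LSS, MYLIP, NSDHL, SCD and SREBF2. Without untreated A549 replicate 2 the difference was -0.16 for SCAP and 0.17 for ELOVL6, with the calls lost, and without untreated A549 replicate 1 it was -0.47 for SCAP. The lines also differed in untreated level and in medium, and their part was not tested. No group had enough libraries to test whether a single library lay far from the rest.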

How the results depend on the processing

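Counts of called genes moved most for palbociclib and indisulam alone. For palbociclib against untreated (0 higher and 6 lower), 1 was higher with no filter on low counts, with a mean of at least 50 counts and with the crossed block, and 2 were lower with only the compared groups in the model. For indisulam (4 higher and 13 lower), 2 were higher with TMM normalization, 1 with DESeq2 and 2 with only the compared groups, where 7 were lower. For PF-06873600 in SUM159, DESeq2 called 1 higher in place of 2. For the interaction of palbociclib and indisulam, 0 were below the sum in place of 1 with DESeq2, with no filter and with only the compared groups. Leaving out 1 library at a time gave 0 to 4 higher and 3 to 7 lower for palbociclib, 2 to 5 higher and 8 to 14 lower for indisulam, 8 to 12 higher for the combination against indisulam, 1 to 3 higher for PF-06873600 in SUM159 and 0 to 2 below the sum for the interaction. The first range reaches 4 without untreated replicate 1. The other counts of the 33 genes stayed within 1.5 times in the alternatives run.

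Over all 33 genes and 10 comparisons, directions turned in 94 of 3596 refits, for 53 pairs of a gene and a comparison, and none of these 94 refits passed the test. Of the 94, 14 concern the genes called, the 4 genes followed at any value (SREBF1, SREBF2, SCAP and INSIG1) and the FASN interaction. INSIG1 and SCAP, combination against palbociclib, were -0.054 and -0.066 with TMM and -0.0070 and -0.019 with DESeq2. SREBF2, combination against indisulam, was 0.015 with DESeq2. With 1 library left out, SREBF1 ranged from -0.469 to 0.0079 for palbociclib, from -0.473 to 0.0042 for the interaction, from -0.459 to 0.018 for the difference between lines after PF-06873600 and from -0.433 to 0.044 between the untreated lines. INSIG1 ranged from -0.040 to 0.115 for the combination against palbociclib and from -0.138 to 0.017 against indisulam, where SREBF2 ranged from -0.065 to 0.028. SCAP ranged from -0.061 to 0.016 in SUM159, and the FASN interaction from -0.015 to 0.624. Among all 94, only the SREBF1 difference between the untreated lines without A549 replicate 1 belonged to a value that had passed the test.

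Over all genes, palbociclib gave 1310 higher and 1168 lower, compared to 543 and 406 with only the compared groups, 622 lower with DESeq2, 816 and 656 without palbociclib replicate 1 and 779 and 522 without replicate 2. Indisulam gave 4420 higher, compared to 2742 with DESeq2, and the interaction 2281 below the sum, compared to 1495. The cause was not tested. TMM and DESeq2 scaling moved the median of all genes by less than 0.1 on the log2 scale.

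The labels give replicate numbers but no shared culture or day, so the numbers were not taken as pairs. With the replicate number as a block, 0 of the 33 genes were higher and 5 lower for palbociclib, 22 and 6 between the untreated lines, and the other counts were as without it. Deviations of same-numbered libraries correlated at -0.27 for palbociclib and untreated A549, and the crossed block gave 1 higher and 8 lower. They correlated at -0.13 for the untreated lines, and the crossed block gave 22 higher and 7 lower.

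Depth limits CYP51A1, HSD17B7 and, in SUM159, TM7SF2, which had fewer than 8 CPM.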
